A study of Mus musculus with 10 samples.

Results

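The genes described here carry the signal of interferons from the cell surface to the nucleus. They are 10 genes measured among 19938 genes in mouse tumors: the receptor chains Ifnar1, Ifnar2, Ifngr1 and Ifngr2, the kinases Jak1, Jak2 and Tyk2, the transcription factors Stat2 and Stat3, and the inhibitor Usp18. They were chosen by name, and for each gene the probe that is annotated to it alone was used, which was 1 probe for each of the 10. MC38 colon cancer cells of the mouse had been grown under the skin of C57BL/6 mice, to tumors of about 40 mm2. In 5 mice the tumor received CpG1826 (50 µg in a volume of 50 µL), and in 5 mice it received PBS, the carrier. CpG1826 is a synthetic short DNA whose CpG dinucleotides lack methylation, which mouse TLR9 senses. Tumors were dissected 6 h later. The labels give that time for CpG1826, and the same was assumed for PBS. No genetic change is named for either group. The CpG1826 tumors came from mice 50, 58, 183, 189 and 595 and the PBS tumors from mice 26, 29, 482, 592 and 661, by the mouse numbers in the labels.

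Type I interferons bind a receptor made of IFNAR1 and IFNAR2, to which the kinases TYK2 and JAK1 are attached. The kinases phosphorylate STAT proteins, STAT2 among them, and STAT2 enters the nucleus with IRF9 in the complex ISGF3, which switches on antiviral genes through interferon-stimulated response elements. Interferon-γ uses IFNGR1 and IFNGR2 with JAK1 and JAK2. STAT3 is the main relay of cytokines such as IL-6 and IL-10. USP18 removes the ubiquitin-like protein ISG15 from its targets and also binds IFNAR2, where it displaces JAK1 and damps the response. The comparison asked which of these parts differed in transcript level within hours of a local TLR9 agonist.

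Usp18, Jak2, Stat2 and Stat3 rose in CpG1826 tumors, while Jak1, Tyk2 and all 4 receptor chains did not pass the test. The test was that of limma with Benjamini-Hochberg adjustment over all 19938 genes, passed at an adjusted p under 0.05, and values are log2 array intensities. The 4 genes that rose are 4 of 10 members, and 0 members fell, where 4.66% of all genes tested passed, 3.56% as higher and 1.1% as lower. At an unadjusted p under 0.05, 6 of the 10 were higher and 0 lower, against 8.13% of all genes higher. The median log2 fold change of the 10 was 0.26, and that of all genes was -0.02. Because each sample is a whole tumor, more cells of a type and more RNA per cell cannot be told apart in any of these values.

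**Figure D1:**
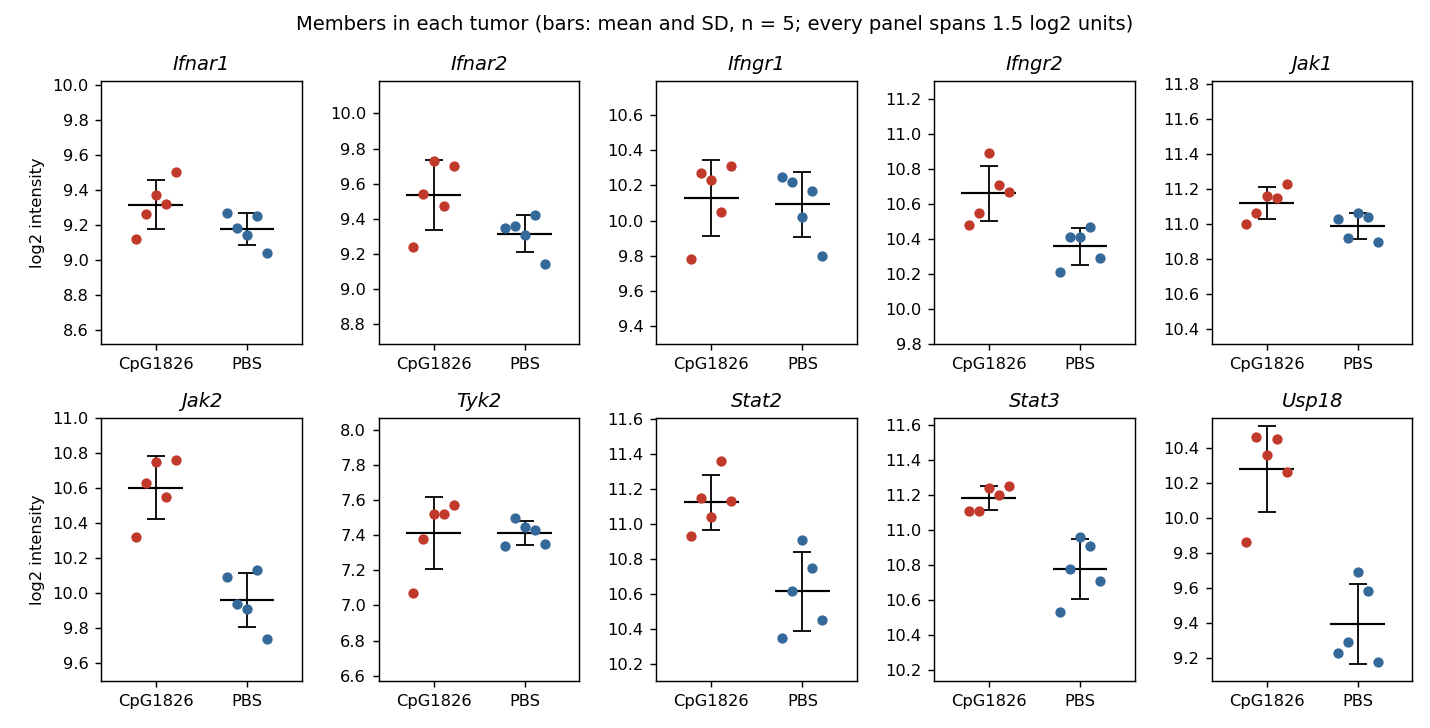
Log2 intensity of each member in each tumor, with CpG1826 tumors in red on the left and PBS tumors in blue on the right. Points are single tumors in the order of their mouse numbers, lines are means and bars are SDs (n = 5 per group), and every panel spans 1.5 log2 units. The groups do not overlap for Ifngr2, Jak2, Stat2, Stat3 and Usp18, and they overlap for the other 5 genes.

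Promoter windows of Stat2, Jak2 and Stat3, members that rose, are shown so that matches to the elements bound by ISGF3 and by STAT proteins can be seen in them. Each runs from 250 bases before to 50 bases after the annotated start and was taken from RefSeq (build GRCm38.p6), 5′ to 3′ on the strand of the gene. Capitals mark a match to the interferon-stimulated response element, searched on both strands as GAAA, any 2 bases and GAAA. The windows are chr10:128270248-128270547 for Stat2 (plus strand), chr19:29251553-29251852 for Jak2 (plus strand) and chr11:100939491-100939790 for Stat3 (minus strand).
Stat2: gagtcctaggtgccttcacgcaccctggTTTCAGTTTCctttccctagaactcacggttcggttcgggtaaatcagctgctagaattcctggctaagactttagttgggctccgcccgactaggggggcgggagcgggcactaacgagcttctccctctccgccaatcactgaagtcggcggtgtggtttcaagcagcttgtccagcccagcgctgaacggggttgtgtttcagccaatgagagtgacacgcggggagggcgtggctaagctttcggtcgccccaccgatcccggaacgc
Jak2: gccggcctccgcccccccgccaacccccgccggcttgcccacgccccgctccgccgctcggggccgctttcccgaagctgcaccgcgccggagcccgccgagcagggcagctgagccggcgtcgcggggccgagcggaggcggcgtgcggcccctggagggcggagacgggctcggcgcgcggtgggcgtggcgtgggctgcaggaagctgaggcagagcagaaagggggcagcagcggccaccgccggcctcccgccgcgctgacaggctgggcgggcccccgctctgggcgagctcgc
Stat3: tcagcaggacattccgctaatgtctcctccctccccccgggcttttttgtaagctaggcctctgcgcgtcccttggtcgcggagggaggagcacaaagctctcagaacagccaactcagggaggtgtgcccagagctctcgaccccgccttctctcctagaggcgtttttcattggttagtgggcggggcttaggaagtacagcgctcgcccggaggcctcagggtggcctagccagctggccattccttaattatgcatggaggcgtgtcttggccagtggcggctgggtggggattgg
The Stat2 window holds 1 match, TTTCAGTTTC, on the opposite strand, with its first base at position -222 from the start. No match to these letters was found in the Jak2 and Stat3 windows, which says nothing about binding there. Of 32851 windows of 300 bases, 3.44% hold the element. Of the 9 members with a window, Stat2 was the 1 with a match. Usp18 had no window and was not searched for either element. The gamma-activated site, searched on both strands as TTCNNNGAA, was found in 2 member windows, as TTCACGGAA in that of Ifnar1 and as TTCCTGGAA in that of Ifnar2, and in 8.3% of all windows. The 2 searched motifs did not overlap in any member window. These matches describe the sequence only.

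Among the receptor chains of type I interferons, neither gene passed the test. Ifnar1, the chain that carries TYK2, lay between 9.12 and 9.50 in CpG1826 tumors and between 9.04 and 9.27 in PBS tumors. Its log2 fold change was 0.14 ± 0.08 (SE; 95% confidence interval -0.03 to 0.31, limma adjusted p = 0.447). Ifnar2, the high-affinity chain, measured 9.24, 9.54, 9.73, 9.47 and 9.70 in CpG1826 mice 50, 58, 183, 189 and 595, against 9.35, 9.36, 9.31, 9.42 and 9.14 in PBS mice 26, 29, 482, 592 and 661. CpG1826 mouse 50 lay within the PBS range and the other 4 CpG1826 tumors lay above it. The log2 fold change of Ifnar2 was 0.22 ± 0.09 (SE; 0.02 to 0.43), and it did not pass after adjustment (limma adjusted p = 0.272).

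The receptor chains of interferon-γ did not pass either, and they differed in how far their groups overlapped. Ifngr1, the ligand-binding chain that carries JAK1, lay between 9.78 and 10.31 in CpG1826 tumors and between 9.80 and 10.25 in PBS tumors, with a log2 fold change of 0.04 ± 0.11 (SE; -0.21 to 0.28, limma adjusted p = 0.915). Ifngr2, the signalling chain that carries JAK2, measured 10.48, 10.55, 10.89, 10.71 and 10.67 in the 5 CpG1826 tumors, against 10.21, 10.41, 10.41, 10.47 and 10.29 in the 5 PBS tumors, in the order of mice given above. All 5 CpG1826 values were above all 5 PBS values, with 10.48 in CpG1826 mouse 50 next to 10.47 in PBS mouse 592. The fold was 1.23 (95% confidence interval 1.09 to 1.4), and the limma adjusted p of 0.0635 was above the threshold. Ifngr2 passed with CpG1826 mouse 50 left out (limma adjusted p = 0.0395), and its adjusted p ran from 0.0395 to 0.152 when single mice were left out in turn. It also passed under several other settings given in the closing part.

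Of the 3 kinases, Jak2 rose and Jak1 and Tyk2 did not pass. Jak2, which serves interferon-γ and many growth factor and cytokine receptors, measured 10.32, 10.63, 10.75, 10.55 and 10.76 in CpG1826 tumors, against 10.09, 9.94, 9.91, 10.13 and 9.74 in PBS tumors. The lowest CpG1826 value, that of mouse 50, lay above the highest PBS value, that of mouse 592. The means were 10.60 ± 0.18 in CpG1826 and 9.96 ± 0.15 in PBS tumors (SD, n = 5 per group), a 1.56-fold rise (95% confidence interval 1.35 to 1.81, limma adjusted p = 0.00151). Jak1, which serves both interferon receptors, averaged 11.12 ± 0.09 in CpG1826 and 10.99 ± 0.07 in PBS tumors (SD, n = 5 per group) with overlapping groups and a log2 fold change of 0.13 ± 0.07 (SE; -0.02 to 0.27, limma adjusted p = 0.395). Tyk2, the kinase of IFNAR1, lay between 7.07 and 7.57 in CpG1826 and between 7.34 and 7.50 in PBS tumors. Its log2 fold change was 0.00, with an interval of -0.20 to 0.20 (limma adjusted p = 0.997).

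Both transcription factors rose. Stat2, the subunit of ISGF3 that brings the activation domain, measured 10.93, 11.15, 11.04, 11.36 and 11.13 in CpG1826 tumors, against 10.35, 10.62, 10.91, 10.75 and 10.45 in PBS tumors. The groups did not overlap, but CpG1826 mouse 50 (10.93) and PBS mouse 482 (10.91) lay next to each other. Stat2 was 1.42-fold higher (95% confidence interval 1.2 to 1.67, limma adjusted p = 0.0167). Stat3 measured 11.11, 11.11, 11.24, 11.20 and 11.25 in CpG1826 tumors, against 10.53, 10.78, 10.96, 10.91 and 10.71 in PBS tumors. The CpG1826 values of Stat3 were close together, with an SD of 0.07, against an SD of 0.17 in PBS tumors. Stat3 was 1.32-fold higher (1.17 to 1.5, limma adjusted p = 0.0122).

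Usp18 had the largest log2 fold change of the 10 members. It measured 9.86, 10.46, 10.36, 10.45 and 10.26 in CpG1826 tumors, against 9.23, 9.29, 9.69, 9.58 and 9.18 in PBS tumors. All 5 CpG1826 tumors lay above the highest PBS tumor, mouse 482, and CpG1826 mouse 50 was the lowest of its group. The means were 10.28 ± 0.24 in CpG1826 and 9.39 ± 0.22 in PBS tumors (SD, n = 5 per group), a 1.84-fold rise (95% confidence interval 1.52 to 2.23, limma adjusted p = 0.00097). In all, the groups did not overlap for 5 of the 10 members, each higher in CpG1826 tumors, where 6.78% of all genes had groups that did not overlap and 4.35% had every CpG1826 value above every PBS value.

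**Figure D2:**
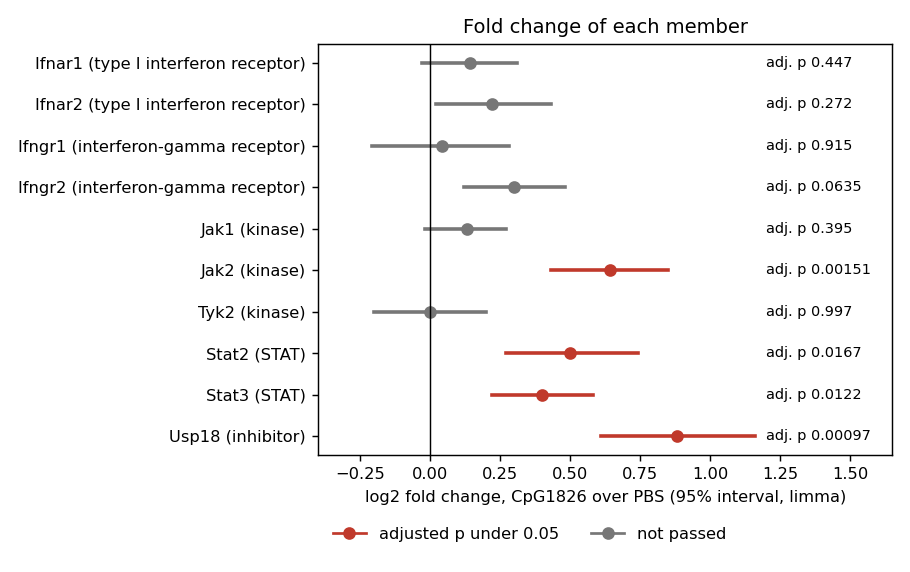
Log2 fold change of each member, CpG1826 over PBS, with its 95% confidence interval from limma and its adjusted p at the right. Jak2, Stat2, Stat3 and Usp18, in red, passed at an adjusted p under 0.05, and the intervals of Ifnar2 and Ifngr2 also lie above 0 but did not pass after adjustment.

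Whether partners changed unequally was tested on the log2 ratio of the 2 genes within each array, for 5 pairs. Group labels were permuted exactly over the arrays (two-sided, smallest possible p = 0.00794), with Benjamini-Hochberg adjustment over the 5 pairs. The level of a ratio depends on the probes, so the comparison of ratios between groups is what can be read. The ratio of Jak2 over Jak1 was -0.52 ± 0.12 in CpG1826 and -1.03 ± 0.12 in PBS tumors (SD, n = 5 per group, exact p = 0.00794, adjusted p = 0.0198). Its 5 CpG1826 values lay between -0.68 and -0.41 and its 5 PBS values between -1.16 and -0.91, so the difference between groups was larger for Jak2 than for Jak1, by 0.51 on the log2 scale. The ratio of Usp18 over Ifnar2, the inhibitor over the chain it binds, was 0.74 ± 0.19 in CpG1826 and 0.08 ± 0.20 in PBS tumors (SD, n = 5 per group, exact p = 0.00794, adjusted p = 0.0198). It lay between 0.56 and 0.98 in CpG1826 and between -0.11 and 0.38 in PBS tumors.

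The other 3 ratios did not pass the test. Ifnar2 over Ifnar1 differed by 0.08 (95% confidence interval of the difference -0.03 to 0.20, exact permutation test, adjusted p = 0.169). Ifngr2 over Ifngr1 differed by 0.26 (-0.03 to 0.56, exact permutation test, adjusted p = 0.132). Stat3 over Stat2 differed by -0.10 (-0.28 to 0.07, exact permutation test, adjusted p = 0.23). Missing the threshold does not show that the partners moved alike, and the interval for the interferon-γ receptor chains reaches 0.56 on the log2 scale.

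**Figure D3:**
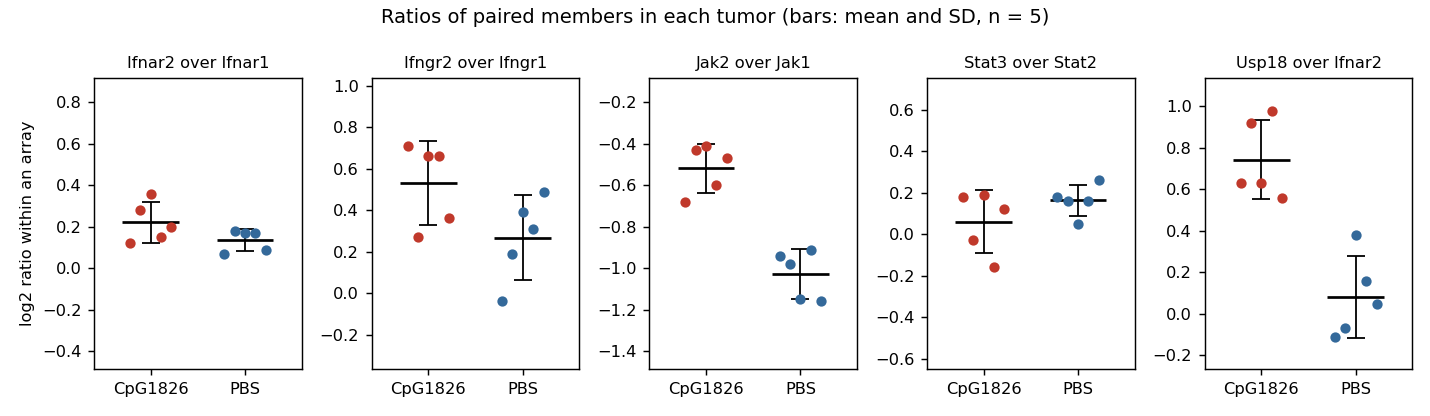
Log2 ratio of paired members within each array, with CpG1826 tumors in red on the left and PBS tumors in blue on the right, lines for means and bars for SDs (n = 5 per group). Jak2 over Jak1 and Usp18 over Ifnar2 have 5 of 5 CpG1826 tumors above every PBS tumor, and the other 3 ratios overlap.

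The members also varied together among tumors of one group. CpG1826 mouse 50 had the lowest value of its group for all 10 members (for Stat3 level with mouse 58 at 2 decimals), and it was lowest for 27.1% of all genes. PBS mouse 661 was the lowest of its group for Ifnar1, Ifnar2, Ifngr1, Jak1, Jak2 and Usp18, and for 18.6% of all genes. PBS mouse 26 was the lowest for the other 4, Ifngr2, Stat2, Stat3 and Tyk2, and for 30.1% of all genes. CpG1826 mouse 595 was the highest of its group for 6 members, Ifnar1, Ifngr1, Jak1, Jak2, Stat3 and Tyk2, and for 16.5% of all genes. After the mean of its own group was taken from each value, the 45 pairs of members correlated over the 10 arrays at a Pearson r of 0.0495 to 0.944, with a median of 0.602. These values are a description, since all members share the same 10 arrays. Whether other pairs of genes correlated less was not tested. The pair that varied most alike was Ifnar2 with Jak2 (0.944), and the pair that varied least alike was Ifngr1 with Stat3 (0.0495).

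**Figure D4:**
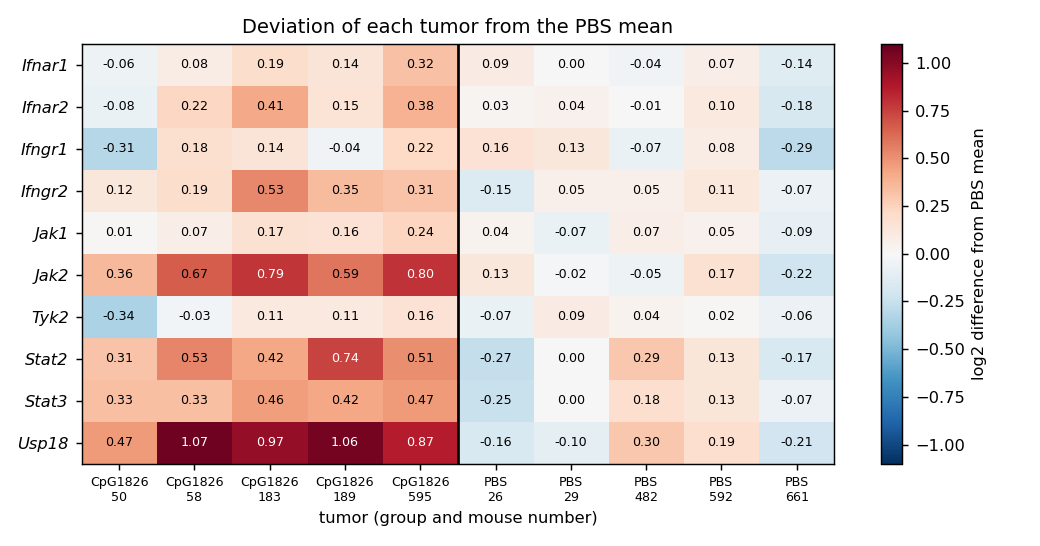
Difference of each tumor from the mean of the 5 PBS tumors on the log2 scale, for each member (rows) and tumor (columns, CpG1826 left of the line and PBS right of it, with mouse numbers below). The rows of Ifngr2, Jak1, Jak2, Stat2, Stat3 and Usp18 are positive in all 5 CpG1826 tumors, and CpG1826 mouse 50 has the lowest value of its group in every row, level with mouse 58 for Stat3.

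Ifnar1, Ifnar2, Ifngr1, Jak1, Jak2 and Usp18 were lowest in mice 50 and 661. In each group that tumor had the lowest mean of T and NK cell markers and of macrophage and monocyte markers. The mean of neutrophil markers was instead the highest of its group there (6.70 in mouse 50 and 5.83 in mouse 661). Ifngr2, Stat2, Stat3 and Tyk2 were lowest in CpG1826 mouse 50 too, but among PBS tumors in mouse 26. The mean log2 level of 13 T and NK cell markers was 6.59 in CpG1826 mouse 50, against 7.05 to 7.43 in the other CpG1826 tumors. It was 6.60 in PBS mouse 661, against 7.26 to 7.42 in the other PBS tumors. The mean of 13 macrophage and monocyte markers was likewise lowest in mouse 50 (9.87, the others 9.98 to 10.29) among CpG1826 tumors and in mouse 661 (the others 10.28 to 10.39) among PBS tumors. With group means removed, Ifnar2 followed the macrophage mean at a Pearson r of 0.943 (permutation p = 0.00068, adjusted p = 0.0113) and a Spearman rho of 0.952 (permutation p = 0.00057, adjusted p = 0.0142). Without mice 50 and 661, the tumors farthest from the median on that axis, r was 0.906. Ifnar2 followed the T and NK cell mean at r = 0.932 (permutation p = 0.00064, adjusted p = 0.0113; 0.858 without the same mice) and rho = 0.915 (permutation p = 0.00142, adjusted p = 0.0197).

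Jak2 followed the macrophage mean at r = 0.892 (permutation p = 0.00155, adjusted p = 0.0161) and rho = 0.806 (permutation p = 0.0119, adjusted p = 0.0995), and at r = 0.676 without mice 50 and 661, so its size depends on those tumors. It followed the T and NK cell mean at r = 0.881 (permutation p = 0.00426, adjusted p = 0.0267; 0.534 without the same mice) and rho = 0.721 (permutation p = 0.0346, adjusted p = 0.177). Ifngr1 followed the macrophage mean at r = 0.911 (permutation p = 0.00161, adjusted p = 0.0161; 0.701 without these mice), but its rho of 0.745 did not pass (permutation p = 0.04, adjusted p = 0.177). With the T and NK cell mean Ifngr1 had r = 0.931 (permutation p = 0.00428, adjusted p = 0.0267; 0.65 without these mice) and rho = 0.636 (permutation p = 0.0788, adjusted p = 0.232). Ifnar1 had r = 0.857 with the macrophage mean (permutation p = 0.00338, adjusted p = 0.0267; 0.646 without these mice) and a rho of 0.782 that did not pass (permutation p = 0.0213, adjusted p = 0.133). Its r of 0.795 with the T and NK cell mean did not pass (permutation p = 0.0131, adjusted p = 0.0654). For Ifngr2 neither relation passed, at r = 0.556 with the macrophage mean (permutation p = 0.132, adjusted p = 0.236) and r = 0.588 with the T and NK cell mean (permutation p = 0.107, adjusted p = 0.206). Nor did either pass for Jak1, at r = 0.68 with the macrophage mean (permutation p = 0.0523, adjusted p = 0.138) and r = 0.665 with the T and NK cell mean (permutation p = 0.0509, adjusted p = 0.138). No relation to the keratinocyte or neutrophil mean passed. With the keratinocyte mean Jak2 had r = -0.772 (permutation p = 0.0174, adjusted p = 0.079; -0.867 without CpG1826 mice 183 and 189) and rho = -0.806 (permutation p = 0.0115, adjusted p = 0.0995). Ifnar2 had r = -0.743 with it (permutation p = 0.0271, adjusted p = 0.0974) and rho = -0.806 (permutation p = 0.0211, adjusted p = 0.133). The family was 50 relations, 10 members by 5 gene lists, with 100000 permutations within groups. The relations were examined after the values of the tumors had been seen. All p-values are two-sided.

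Usp18 and Stat2 varied with the antiviral genes. With group means removed, Usp18 followed the mean of 23 ISGF3 target genes at r = 0.959 (permutation p = 0.00037, adjusted p = 0.0113) and rho = 0.988 (permutation p = 0.00054, adjusted p = 0.0142). Without CpG1826 mouse 50 and PBS mouse 482, r was 0.94. The 5 PBS tumors had the same order by Usp18 as by the target mean, with mouse 661 lowest and mouse 482 highest. Stat2 followed that mean at r = 0.89 (permutation p = 0.00483, adjusted p = 0.0268; 0.828 without the same mice) and rho = 0.915 (permutation p = 0.00158, adjusted p = 0.0197). Other members had positive r with it as well, but none passed after adjustment. Stat3 had r = 0.747 (permutation p = 0.0347, adjusted p = 0.108; 0.676 without the same mice) and rho = 0.733 (permutation p = 0.0424, adjusted p = 0.177). Tyk2 had r = 0.596 (permutation p = 0.0488, adjusted p = 0.138). Usp18 had r = 0.628 with the T and NK cell mean (permutation p = 0.0858, adjusted p = 0.195; -0.336 without mice 50 and 661) and r = 0.452 with the macrophage mean (permutation p = 0.251, adjusted p = 0.37; -0.457 without these mice). Stat2 had r = 0.362 with the T and NK cell mean (permutation p = 0.343, adjusted p = 0.418). The relation of Stat2 to the macrophage mean had an r of 0.222 (permutation p = 0.557, adjusted p = 0.606) and a rho of 0.0909 (permutation p = 0.813, adjusted p = 0.865). Whether the relations of these genes to the lists differ from each other was not tested.

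Over the 10 arrays with group means removed, the genes that varied most like Usp18 were Adar (r = 0.978), Rnf213 (0.973) and Trim14 (0.969). Those most like Jak2 were Cap1 (0.981), Gimap9 (0.972) and A630001G21Rik (0.955), and those most like Stat2 were Daxx (0.977), Klhl10 (0.951) and Fam160a1 (0.937). Each was picked as the most alike among all other genes, and no p is given. Of these 9 genes, Rnf213 (log2 fold change 0.31, limma adjusted p = 0.047) and Daxx (0.56, limma adjusted p = 0.0229) rose in CpG1826 tumors, and the others did not pass.

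Markers of other cell types moved with the comparison and stand beside every rise above. Of 17 keratinocyte markers, 13 rose and 0 fell, and their mean log2 level lay between 6.84 and 7.46 in CpG1826 and between 5.44 and 5.96 in PBS tumors. Of 10 neutrophil markers, 6 rose and 0 fell, with means of 6.26 to 6.70 in CpG1826 and 5.59 to 5.83 in PBS tumors, while Ly6g was 0.00 apart on the log2 scale. Of 13 macrophage and monocyte markers, Fcgr1 rose and Csf1r, Ccr2 and Cx3cr1 fell, with linear intensities summing to 17191 to 22452 in CpG1826 and 16949 to 22186 in PBS tumors. Of 13 T and NK cell markers, Gzmb rose and 0 fell, with means of 6.59 to 7.43 in CpG1826 and 6.60 to 7.42 in PBS tumors. Of 8 endothelial markers, Tek fell. Of 6 B cell, 9 dendritic cell and 8 fibroblast markers, 0 passed in limma (0, 0 and 0 higher, and 0, 1 and 2 lower, at an unadjusted p under 0.05). Of 10 colon carcinoma and epithelial markers, Epcam and Cdh1 rose, and 7 lay below the median level of all genes. Among those 7 were Epcam (5.36), Krt20 (4.33), Cdx2 (5.59) and Vil1 (4.62). The values have no true zero, and no marker could be called absent.

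The keratinocyte mean was nearly collinear with the group (r = 0.965 with group membership), and a fit with it as a covariate extrapolates, since its ranges do not overlap. In that fit 1 of the 10 members passed. This was Jak2, with a log2 fold change of 1.49 (limma adjusted p = 0.0355). Usp18 stood at 1.39 (limma adjusted p = 0.156), Stat3 at 0.61 (limma adjusted p = 0.311) and Stat2 at 0.44 (limma adjusted p = 0.586), none of them past the threshold. The ranges of the macrophage mean and of the T and NK cell mean overlapped between groups, and fits with these as covariates were added after the data were seen. With either, 6 members passed: Usp18, Jak2, Stat2, Stat3, Ifngr2 and Ifnar2. Ifnar2 stood at 0.38 (limma adjusted p = 0.00501) with the macrophage mean and at 0.24 (limma adjusted p = 0.0343) with the T and NK cell mean. The macrophage list holds 4 genes that changed with CpG1826, and the T and NK cell list holds Gzmb, which rose. Neither mean is therefore independent of the treatment. The part that keratinocytes, neutrophils or other cells had in the rises of Usp18, Jak2, Stat2 and Stat3 was not tested.

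The other genes of the pathway were counted from 7 lists of ligands, receptors, STAT proteins, inhibitors and targets. The lists hold 102 genes with a probe of their own, of which 41 rose and 0 fell in limma (4 lower at an unadjusted p under 0.05), beside 3.56% and 1.1% of all genes. Jak3 and Isg15 had no probe annotated to them alone and were not analysed here.

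Among the ligands, 0 of 15 interferon genes passed in limma in either direction (1 higher and 2 lower at an unadjusted p under 0.05), with a median log2 fold change of -0.03, and 12 of the 15 lay below the median gene level. The 2 with the highest level, Ifnz and Ifnl2, each had a log2 fold change of -0.17 (limma adjusted p = 0.307 and adjusted p = 0.576).

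Receptor chains that use the same kinases rose in part. Of 18 chains of other cytokine receptors measured, 7 rose and 0 fell, with a median log2 fold change of 0.13. Il7r, the IL-7 receptor α chain, was 2.26-fold higher (limma adjusted p = 0.000545), Csf3r, the G-CSF receptor of neutrophils, 2.14-fold (limma adjusted p = 0.0002), Il4ra, the shared chain of the IL-4 and IL-13 receptors, 1.89-fold (limma adjusted p = 3.55e-05) and Osmr, the oncostatin M receptor, 1.62-fold (limma adjusted p = 0.00112). Il15ra (0.48), Csf2rb (0.63) and Il13ra1 (0.35) also rose on the log2 scale. Il6st, the gp130 chain of the IL-6 family, stood at 0.09, and Il10rb, which is shared by IL-10 and type III interferon receptors, at 0.06, neither past the threshold. Csf3r is also on the neutrophil list.

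Of 5 other STAT and ISGF3 genes, Stat5a, a relay of growth factor cytokines, rose 1.27-fold (limma adjusted p = 0.0201) and 0 fell. Without CpG1826 mouse 183 the adjusted p of Stat5a was 0.0581. Irf9, the DNA-binding subunit of ISGF3, stood at 0.25 (limma adjusted p = 0.102), Stat4 at 0.28, Stat5b at 0.06 and Stat6 at 0.04, none past the threshold. The median of the 5 was 0.25.

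Of 19 negative regulators of JAK-STAT signalling, 3 rose and 0 fell, with a median log2 fold change of 0.07. Socs3, an inhibitor of gp130 receptors and a STAT3 target, was 2.52-fold higher (limma adjusted p = 4.95e-07), and Ptpn1, a phosphatase that acts on JAK2 and TYK2, 1.51-fold (limma adjusted p = 0.011). Pias4, a SUMO ligase, was 1.25-fold higher at an adjusted p of 0.0477 by limma, and it lost its call in each of the 10 fits that leave out 1 mouse (limma adjusted p = 0.0504 to 0.116). Socs1, the inhibitor best known from interferon signalling, stood at 0.09 (limma adjusted p = 0.732). Among 5 genes of ISG15 conjugation, the reaction that Usp18 reverses, Trim25 was 1.48-fold (limma adjusted p = 0.00322) and Herc6, the ISG15 ligase of mice, 1.36-fold higher (limma adjusted p = 0.0264). Uba7 (0.21), Ube2l6 (0.19) and Arih1 (0.03 on the log2 scale) were not past the threshold. Herc6 lost its call without CpG1826 mouse 58, 183, 189 or 595 or PBS mouse 26, 29 or 661 (limma adjusted p = 0.0519 to 0.0694).

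Targets rose in the ISGF3 and STAT3 lists. Of 23 ISGF3 targets, 15 rose and 0 fell, and the median of the list was 0.48 on the log2 scale. With single mice left out, 10 to 17 of the 23 rose, with 10 both without PBS mouse 26 and without PBS mouse 661. With the keratinocyte mean as covariate 0 rose. Mx2 (2.41-fold), Rsad2 (2.06-fold), Mx1 (1.89-fold) and Cmpk2 (1.88-fold), all antiviral effectors, changed most. Usp18, itself known as an interferon-stimulated gene, was 1.84-fold higher. Of 20 STAT3 targets, 16 rose and 0 fell, with a median of 0.73. Lcn2 (18-fold), Saa3 (6.83-fold), Il10 (5.54-fold) and Socs3 (2.52-fold) changed most, and several genes of this list, Lcn2, Saa3, Il6 and Ccl2 among them, are also known targets of NF-κB.

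**Figure D5:**
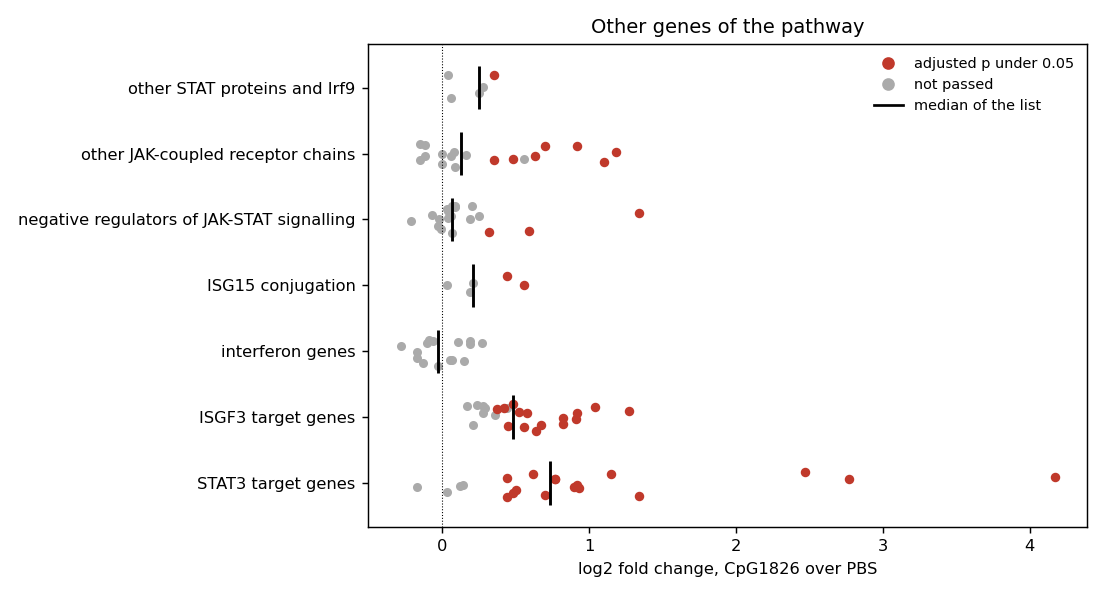
Log2 fold change, CpG1826 over PBS, of each measured gene of the 7 lists, with genes at an adjusted p under 0.05 in red, the others in grey and the list median as a black line. The medians run from -0.03 for interferon genes to 0.73 for STAT3 targets, and no gene of these lists passed as lower.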

How the data were processed

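RNA of 10 tumors was measured on 1 whole-transcript array each, biotin-labelled per the labels' protocols. The deposited table holds log2 values that the authors normalized between arrays, as far as the values show (array medians 6.47 to 6.53, log base read from the range of 2.03 to 14.7). R 2.7.1 and limma are listed, per the submitters' processing notes. How background was corrected and probes summarized and normalized is not stated there, and low genes may have compressed fold changes. Of 35512 probes, 21789 have exactly 1 symbol and were used, 1621 have several and 12102 none. For the 999 of 19938 genes with several probes, that with the highest mean stood for the gene. Genes were tested with limma 3.58.1 in R 4.3.3 (lmFit and eBayes, two-sided), and pairs and relations with scipy 1.17.1. The number of arrays limits the precision. Nothing in the labels names a batch, and no mouse number occurs in both groups.

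Members, lists, pairs and tests were chosen with earlier results of these data known. A further list of target genes is not reported here. All members were named, with up to 4 called genes of each list of largest change (or 2 of highest level where none was called), and 3 most alike genes for 3 members. Other list genes and the markers were named after their values were seen. Alternatives tried were another normalization or centring, filters on low genes, priors, weights, probe rules, stricter thresholds, list scores as covariates and leaving out each mouse.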

Additional observations from a re-analysis of the deposited data

Results flagged for a closer look

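In 2 of 68 groups of 5 tumors examined, 1 tumor stood apart from the other 4, its gap to the nearest being above Dixon's 95% critical value as a share of the range. Chance flags about 1 in 20 groups, so 2 of 68 is no more than that rate. None of the 10 members or 5 ratios was among them. Herc6 was 10.26 in CpG1826 mouse 50, against 10.69 in the next tumor. Stat5a was 8.12 in PBS mouse 26, against 8.34.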

How the results depend on the processing

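No paired analysis was possible because the groups share no mouse number. The count of members that rose was 4, and it was 4 to 5 over the 10 fits without 1 mouse, 1 with the keratinocyte mean as covariate, 2 at an adjusted p under 0.01 and 0 by treat, which tests in limma against a change of at least 1.5-fold. No member fell under any setting run. Jak2, Stat2, Stat3 and Usp18 stayed past the threshold in all 10 such fits (highest limma adjusted p = 0.00585, 0.0475, 0.0354 and 0.00503). Ifngr2 gained its call with array weights (0.0419), genes below the lower quartile (0.0458) or the median level left out (0.0283), median centring (0.0425) and a trended, robust prior (0.0248), as limma adjusted p. The log2 fold change of Ifngr1, up to 0.13 without single mice, turned to -0.01 without CpG1826 mouse 595 and to -0.03 without PBS mouse 661. That of Tyk2, slightly below 0, was 0.24, 0.11 and 0.01 with the keratinocyte, macrophage and T and NK cell covariates, 0.01 with median centring, 0.08 without CpG1826 mouse 50, 0.01 without CpG1826 mouse 58, and 0.02, 0.01 and 0.00 without PBS mice 29, 482 and 592 (-0.04 to 0.08 over all fits without 1 mouse), none past the threshold. The 5 pair ratios kept their direction and their side of the threshold with quantile normalization and with the mean of a gene's probes. Without single mice, Jak2 over Jak1 differed by 0.48 to 0.55 and Usp18 over Ifnar2 by 0.60 to 0.74. Their groups do not overlap, so the exact p is then the smallest possible by construction (adjusted p = 0.0397) and is no sign of stability.

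Over all genes, 710 rose and 220 fell. The number that rose was 128 with the keratinocyte covariate, 80 with treat, 407 at an adjusted p under 0.01 and 558 to 667 without 1 mouse. The number that fell was 28, 2 and 64 under those settings, 364 after quantile normalization, 338 with genes below the median level left out and 121 to 209 without 1 mouse. Of the 102 pathway genes, 41 rose and 0 fell. The number that rose was 6 with the keratinocyte covariate, 5 with treat and 32 to 41 without 1 mouse, and 1 fell with genes below the median level left out and 1 with the trended, robust prior. The causes were not tested. Low signal limits what could be seen for interferon genes, 12 of 15 of which lay below the median level.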

Other observations

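Several members lie beside other cytokine genes in the RefSeq gene order (GRCm38.p6, used for the order of protein-coding genes only), and 5 neighbours on each side were looked up. On chromosome 16 the order is Ifnar2, Il10rb, Ifnar1 and Ifngr2, with log2 fold changes of 0.22, 0.06, 0.14 and 0.30, and Tmem50b, next to Ifngr2, stood at -0.20. None of these 5 passed in limma (adjusted p = 0.0635 to 0.836). On chromosome 11, Stat5b (0.06), Stat5a (0.35) and Stat3 (0.40) are adjacent, and Stat5a and Stat3 rose while Stat5b did not pass. On chromosome 19, Jak2 (0.64) is followed by Insl6 (0.36), Rln1 (0.03), Plgrkt (0.07), Cd274 (1.35) and Pdcd1lg2 (0.81). Of these neighbours of Jak2, Cd274, which encodes PD-L1, rose (limma adjusted p = 0.000303), and Pdcd1lg2, which encodes PD-L2, did not pass (limma adjusted p = 0.0774). On chromosome 10, Ifngr1 (0.04) did not pass, while Tnfaip3, the NF-κB inhibitor A20, at the second place before it, rose by 1.31 (limma adjusted p = 3.98e-05) and Perp, a desmosome gene on the keratinocyte list at the third place, by 1.57 (limma adjusted p = 7.52e-05). On chromosome 4, Ak4, next to Jak1, rose by 0.51 (limma adjusted p = 0.0122). Perp, Tnfaip3, Ak4, Cd274 and Stat5a are the neighbours that passed, of 5 looked up on each side of each of the 10 members. Some neighbours are shared between members and some had no probe of their own. Of all genes, 4.66% passed in either direction. Whether neighbouring genes changed together more often than other genes was not tested.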
